A study of Mus musculus with 20 samples.

Results

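The 8 genes examined here (Srebf2, Hmgcs1, Sqle, Idi1, Fdps, Fdft1, Cyp51 and Dhcr7) belong to the cholesterol synthesis pathway. They were named as a list of targets of the transcription factor SREBP2 together with Srebf2, which encodes it, and were taken by symbol from the 35006 genes of each library. The list was described as covering synthesis and uptake, but its 8 genes hold no uptake gene, so uptake was followed in a separate list. Hmgcs1 was listed at 0 counts in every library, and the other 7 genes passed the filter on low counts in every comparison.

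SREBP2 is held in the endoplasmic reticulum membrane by SCAP and INSIG proteins while sterols are abundant. When membrane cholesterol falls, SCAP carries SREBP2 to the Golgi, where proteases release the part that enters the nucleus and binds sterol regulatory elements, often beside NF-Y sites, in genes for cholesterol synthesis and uptake. In the retina, cholesterol is both made locally and taken up from the circulation, and photoreceptors and Müller glia both rely on it for membranes.

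Retinal polyA RNA had been sequenced in 20 libraries from wild-type mice of the inbred strain C57BL/6J, 1 library per sample. N-acetyl-L-cysteine ethyl ester (NACET), a cell-permeable precursor of cysteine and glutathione, had been added to the drinking water for 5 days, at a dose of 50 mg/kg each day, and controls received none. The study asked how age and NACET change the retinal transcriptome. The young control group held 4 mice of 119 days and the old control group 4 mice of 668 days. The young NACET group held 6 mice, 4 of 129 days and 2 of 119 days by their titles, and the old NACET group held 6 mice, 2 each of 668, 581 and 574 days. All old mice were labelled male. In each young group 2 mice were labelled female, and in the young NACET group these were the 2 mice of 119 days by title, so that by titles labelled sex and age there cannot be told apart. The labels conflict for 1 of these 2 mice, whose batch tag gives 129 days, the age of the 4 mice labelled male. The labels do not state that libraries of a group came from separate litters or cages, and p-values measure the spread between these libraries.

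Promoter windows were available for 5 of the 8 genes, from RefSeq on GRCm38.p6. Each window ran from 250 bases before an annotated start to 50 bases after it, and Sqle, Fdps and Fdft1 had no entry. The bases before the start are shown for Srebf2, the regulator, for Hmgcs1, whose window held the one sterol regulatory element match in the set, and for the third window of Dhcr7, the gene with a called difference below. They come from chr15:82147019-82147268, chr13:119690101-119690350 and chr7:143829964-143830213, each on the plus strand, and capitals mark matches to the sterol regulatory element TCACNCCAC or to the NF-Y box CCAAT on either strand.
Srebf2: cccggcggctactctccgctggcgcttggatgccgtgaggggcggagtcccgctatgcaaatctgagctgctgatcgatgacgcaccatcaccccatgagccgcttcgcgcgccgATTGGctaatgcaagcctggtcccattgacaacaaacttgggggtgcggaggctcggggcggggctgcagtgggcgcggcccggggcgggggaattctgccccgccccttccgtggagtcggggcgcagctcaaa
Hmgcs1: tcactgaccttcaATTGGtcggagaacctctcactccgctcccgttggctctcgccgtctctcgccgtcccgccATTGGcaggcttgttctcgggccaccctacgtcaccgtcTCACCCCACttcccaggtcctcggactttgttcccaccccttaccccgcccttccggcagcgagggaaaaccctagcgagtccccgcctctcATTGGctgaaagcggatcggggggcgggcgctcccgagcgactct
Dhcr7: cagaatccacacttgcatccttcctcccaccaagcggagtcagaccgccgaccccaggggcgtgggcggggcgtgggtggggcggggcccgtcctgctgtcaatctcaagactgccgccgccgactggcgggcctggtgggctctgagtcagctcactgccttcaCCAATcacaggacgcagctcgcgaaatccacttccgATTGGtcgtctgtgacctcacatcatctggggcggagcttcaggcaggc
The sterol regulatory element matched in 1 of the 5 genes, Hmgcs1, where it lay 137 to 129 bases before the start. That is 1 of the 7 windows of these genes, against 1.24% of all 32851 mouse windows. NF-Y boxes matched in 5 of 5 genes, which is 5 of their 7 windows, against 37.4% of all windows. The Hmgcs1 window held 4 of them, the Idi1 window and the third Dhcr7 window 2 each, and the Srebf2 and Cyp51 windows 1 each. Dhcr7 windows 1 and 2 held none. Sp1 boxes (GGGCGG) also matched in 5 of 5 genes and 6 of the 7 windows, against 35.7% of all windows. An E-box (CACGTG) matched in the second of 3 Dhcr7 windows, 1 of the 7, against 7.15%. These are matches of letters within the windows and not measurements of binding.

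Across the 20 libraries, gene counts ranged from 17.7 to 31.1 M reads. Rod, cone, bipolar, amacrine, ganglion and Müller cell markers were counted in every group, and no marker on those lists was at 0 across a group. Summed markers of corneal epithelium reached 406 CPM (gene counts scaled to 1e+06 per library) in 1 old control library and 385 in 1 young NACET library, and lens markers reached 7289 CPM in 1 old NACET library of 668 days. The median sum of the corneal markers was 111 CPM in young NACET mice and 33.2 CPM in old controls. It was 10.2 CPM in young controls and 6.11 CPM in old NACET mice. In 1 old control library the Xist counts went against the label male. In bulk retina, fewer cells of a type and less RNA per cell cannot be told apart.

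Srebf2 carried the most reads of the set, with 135 to 200 CPM and a mean of 161 ± 15.0 CPM (SD, n = 20). Per length of exon, on the RPKM scale, its mean was 32.4, followed by Fdft1 (squalene synthase) at 20.6, Cyp51 (lanosterol 14α-demethylase) at 17.0, Fdps (farnesyl diphosphate synthase) at 10.5, Sqle (squalene epoxidase) at 9.74, Dhcr7 (7-dehydrocholesterol reductase) at 7.09 and Idi1 (isopentenyl diphosphate isomerase) at 0.987. Each gene was above the next in 20 of 20 libraries, with the exception of Fdps and Sqle, whose order held in 15 of 20. The level of Idi1 rested on 34 to 102 reads per library, whereas the counts of the other 6 measured genes lay between 208 and 4996. Between libraries Idi1 varied most, its highest library at 2.47 times the lowest. That ratio was 1.26 for Fdft1, 1.36 for Sqle, 1.39 for Cyp51, 1.49 for Srebf2, 1.51 for Dhcr7 and 1.57 for Fdps.

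**Figure D1:**
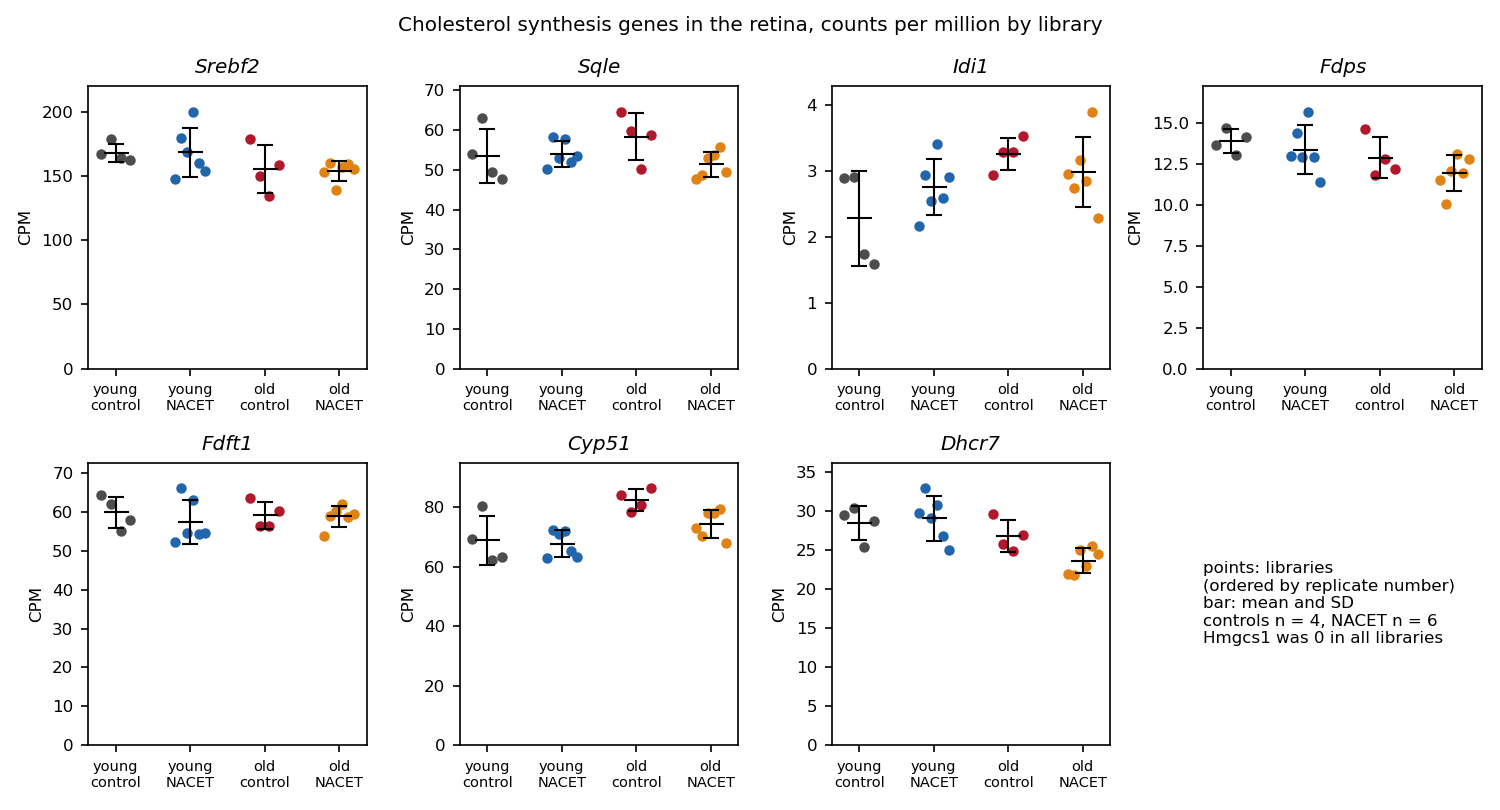
CPM of the 7 counted genes in each library, by group (4 libraries in each control group and 6 in each NACET group). Points are libraries and bars the mean with the SD. Dhcr7 was lowest in the old NACET group, with 21.8 to 25.4 CPM. The Idi1 values of the 4 old control libraries lay above those of the 4 young control libraries, the nearest at 2.94 and 2.90 CPM. In CPM, 11.1% of genes were separated between these groups, and the values are without the library scaling of the fits.

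In mm9, the build of the alignments, Srebf2 lies on the plus strand at chr15:81977696-82035806, Sqle (plus) at chr15:59146632-59162747, Idi1 (plus) at chr13:8884852-8891641 and Dhcr7 (plus) at chr7:151009050-151034315. On the minus strand lie Fdps at chr3:88897514-88905881, Fdft1 at chr14:63763990-63796630 and Cyp51 at chr5:4081145-4104746. The counts cover whole genes and were made without regard to strand. The end of Fdft1 overlaps the end of Ctsb, which lies on the opposite strand at chr14:63741302-63764758, so reads in the shared stretch could not be told apart by strand. The RPKM of Fdft1 used its whole exon length of 2860 bases. A U6 RNA gene is annotated on the same strand within the span of Fdps, at chr3:88901832-88901935. The part of these overlaps in the levels was not tested.

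Hmgcs1, the cytosolic HMG-CoA synthase that acts early in the pathway, was listed at 0 counts in all 20 libraries. It was 1 of 8497 genes at 0 in every library. The mm9 assembly holds the 300-base promoter window of Hmgcs1 2 times, on 2 unplaced sequences, and on none of the assembled chromosomes. Of the 17861 stretches of 50 bases in the gene's 17910-base span on the one sequence, 100% also occurred on the other. Reads that align to more than 1 place were set aside by the counter, and these entries made up 6.65% to 7.92% of its whole tally in the libraries. The part of this duplication in the count of 0 was not tested, and the count is not a measure of the gene's expression.

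Age was compared first between the untreated groups, old against young controls. None of the 7 genes passed an adjusted p of 0.05 (edgeR quasi-likelihood test, Benjamini-Hochberg adjustment over all genes tested), where 1.42% of 16484 genes did, and DESeq2 called none of the 7 either. Without adjustment, 3 of 7 genes had p under 0.05 (Cyp51 and Idi1 higher, Srebf2 lower), against 16.3% of all genes. The median log2 fold change of the 7 genes was -0.07, beside -0.0068 over all genes.

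Srebf2 read 167, 179, 164 and 163 CPM in young controls and 179, 150, 135 and 159 CPM in old controls. The groups overlapped, with 3 of 4 old libraries below all young ones and 1 above, and the log2 fold change was -0.16 (SE 0.07, adjusted p = 0.295, edgeR). Cyp51 read 69.3, 80.2, 62.2 and 63.3 CPM in young and 84.0, 78.3, 80.7 and 86.3 CPM in old controls. All but 1 of the old libraries exceeded every young one, and the log2 fold change was 0.21 (SE 0.08, adjusted p = 0.201, edgeR). For Idi1, which isomerizes isopentenyl diphosphate, the young values were 2.89, 2.90, 1.74 and 1.58 CPM and the old values 2.94, 3.28, 3.28 and 3.53 CPM. In CPM, without the library scaling (TMM) of the fits, the groups did not overlap, as in 11.1% of 16993 genes. The nearest values were 2.94 CPM (54 reads) in old control replicate 1 and 2.90 CPM (72 reads) in young control replicate 2. Over the 20 libraries the TMM factors of old control replicate 1 and young control replicate 1 (2.89 CPM) were 1.05 and 0.949. The separation is therefore one of unscaled CPM. The log2 fold change was 0.47 (SE 0.21, adjusted p = 0.295, edgeR).

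Among the controls, labelled sex moved with these values. The 2 low Idi1 libraries were the young controls labelled female, and among mice labelled male the old against young difference of Idi1 was 0.12 on the log2 scale (SE 0.19) and that of Cyp51 0.09 (SE 0.08), adjusted p = 0.819 and 0.671 by edgeR. These fits include the old control library whose Xist counts went against its label, and without it the differences among mice labelled male were 0.08 for Idi1 (SE 0.21) and 0.06 for Cyp51 (SE 0.09). Sqle was 0.08 higher in old controls on the log2 scale over all 8 libraries and 0.05 lower among mice labelled male, so its sign turned. With labelled sex as a covariate over all 8 libraries the values were 0.12 for Idi1, 0.09 for Cyp51 and -0.05 for Sqle. In young NACET mice, Idi1 averaged 2.75 CPM in the 2 labelled female and 2.76 CPM in the 4 labelled male. Cyp51 averaged 64.1 and 69.5 CPM there, and Sqle 52.7 and 54.7 CPM. Fdps, Fdft1 and Dhcr7 had log2 fold changes of -0.16, -0.07 and -0.14, with adjusted p of 0.360, 0.668 and 0.404 in the edgeR fit.

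NACET in old mice was next compared with old controls, the contrast in which the study looked for an effect of treatment on the aged retina. All 7 genes had lower fitted values under NACET, and none passed the adjusted test, where 0.543% of 16562 genes did. DESeq2 called none of them. By comparison, 49.2% of all genes had a negative log2 fold change. The median of the 7 genes was -0.14, beside 0.0020 over all genes. An unadjusted p under 0.05 was found for 3 of 7 (Sqle, Cyp51 and Dhcr7), against 14.4% of genes. The ranges of the 2 groups overlapped for every one of the 7 genes, whereas 3.55% of 16993 genes had ranges that did not. The 7 genes were correlated between libraries of a group, so their common direction is not 7 separate observations.

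Sqle, which catalyses the first oxygenation step of sterol synthesis, read 64.6, 59.8, 50.2 and 58.8 CPM in old controls, while the 6 old NACET libraries had a lowest value of 47.7, a median of 51.1 and a highest of 55.6 CPM. In old control replicate 3 Sqle was inside the NACET range, and the other 3 controls were above it. The log2 fold change was -0.19 (SE 0.06, adjusted p = 0.160, edgeR), and without that control library it was -0.25 with an adjusted p of 0.0458, past the threshold. That fit called 110 of 16729 genes. Cyp51, which removes the 14α-methyl group of lanosterol, read 84.0, 78.3, 80.7 and 86.3 CPM in old controls against 67.8, 75.4 and 79.3 CPM (lowest, median, highest) under NACET. Of the 6 NACET libraries, 5 were below every control, and the log2 fold change was -0.15 (SE 0.05, adjusted p = 0.175, edgeR). Dhcr7, which reduces 7-dehydrocholesterol to cholesterol, read 29.5, 25.7, 24.8 and 26.9 CPM in old controls against 21.8, 23.7 and 25.4 CPM under NACET. Here 4 of 6 NACET libraries were below every control, and the log2 fold change was -0.19 (SE 0.06, adjusted p = 0.185, edgeR).

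The remaining 4 genes differed less. Srebf2 averaged 156 ± 18.5 CPM (SD, n = 4) in old controls and 154 ± 7.86 CPM (n = 6) under NACET, a log2 fold change of -0.02 with a 95% interval from -0.15 to 0.11. Fdft1, which joins farnesyl units into squalene, averaged 59.2 ± 3.46 and 58.9 ± 2.77 CPM, and its interval ran from -0.11 to 0.08. For Fdps and Idi1 the log2 fold changes were -0.11 (SE 0.08) and -0.14 (SE 0.14).

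Cohort moved with these differences. All old controls were 668 days old, and the 2 NACET mice of that age had the lowest means of the 3 cohorts for Sqle (48.2 CPM, beside 53.4 at 581 days and 52.5 at 574 days), for Dhcr7 (21.9 CPM, beside 24.0 and 25.0) and for Fdps (10.8 CPM, beside 12.6 and 12.4). Between 668-day mice alone, the log2 fold changes were -0.28 for Sqle, -0.21 for Cyp51, -0.30 for Dhcr7 and -0.26 for Fdps, with adjusted p of 0.532, 0.532, 0.532 and 0.573 by edgeR, and that of Srebf2 was 0.0053. Of these 2 libraries, 1 was the one with lens transcripts. Among the controls, replicate 4 held 59555 Xist counts and 1 Y-linked count, against its label male. It had the highest old control values of Cyp51 (86.3 CPM) and Idi1 (3.53 CPM), and not of the other genes. With each library left out in turn, Cyp51 stayed between -0.17 and -0.12 and Idi1 between -0.23 and -0.07. For Sqle the range was -0.25 to -0.16 and for Dhcr7 -0.22 to -0.16. Other measures also differed between the old groups. Summed rod markers (6 of 6 in the files) ranged from 67953 to 82109 CPM in old controls and from 60936 to 73164 CPM under NACET, retinal pigment epithelium markers (6 of 6) from 60.3 to 150.1 CPM and from 22.6 to 70.2 CPM, and immediate early genes (8 of 8) from 98.3 to 144 CPM and from 75.3 to 85.6 CPM. Müller glia markers (6 of 6) overlapped, at 2721 to 3155 and 2921 to 3347 CPM. Their part in the result was not tested.

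**Figure D2:**
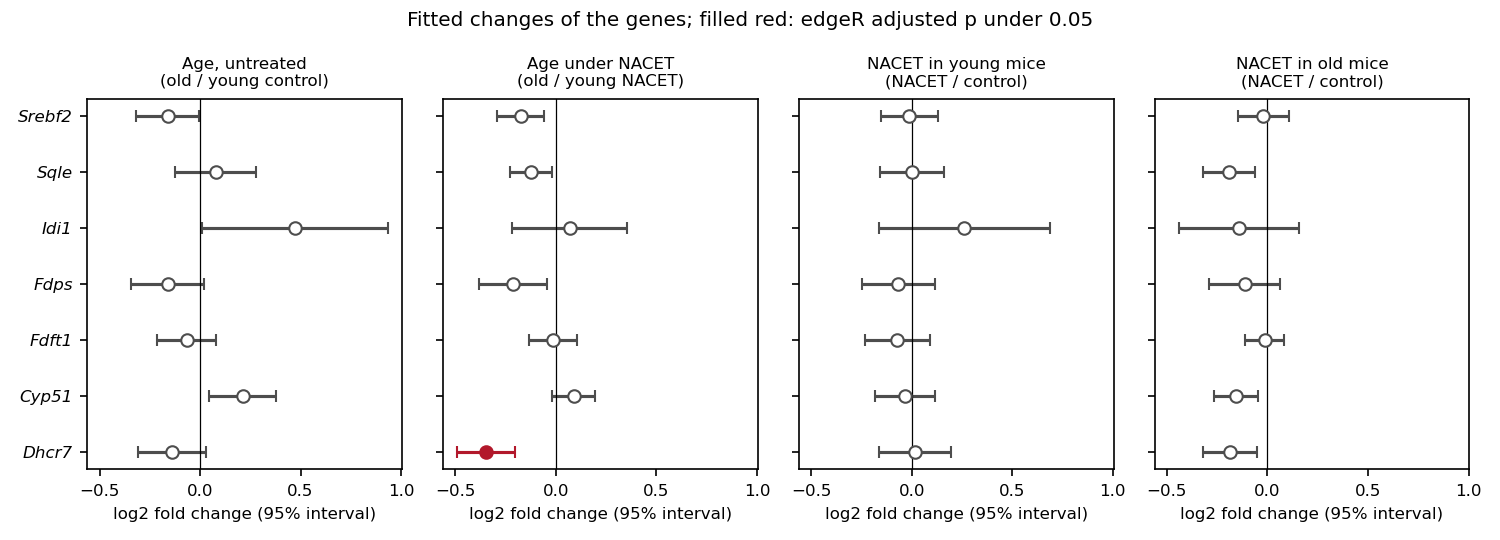
Fitted log2 fold changes of the 7 counted genes with 95% intervals in the 4 comparisons of group pairs. The filled red point is the 1 difference with an edgeR adjusted p under 0.05, Dhcr7 in old against young NACET mice at -0.35, and in the NACET in old mice panel all 7 points lie below 0.

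In young mice the same comparison gave no called gene among the 7 and none among 16588 genes, so 0% were called, while 4.36% (724 genes) had p under 0.05 before adjustment, none of the 7 among them. DESeq2 called none of the 7 either, nor any of 25215 genes. The intervals limit how large a change could be. For Sqle the 95% interval of the log2 fold change ran from -0.16 to 0.16, for Cyp51 from -0.18 to 0.11, for Dhcr7 from -0.16 to 0.20, for Srebf2 from -0.15 to 0.13, for Fdps from -0.25 to 0.12 and for Fdft1 from -0.23 to 0.09, while that of Idi1 was wider, from -0.16 to 0.69. All 7 genes had overlapping ranges, where 0.712% of genes did not. Sqle averaged 53.5 ± 6.81 CPM in young controls (n = 4) and 54.0 ± 3.23 CPM under NACET (n = 6), and Dhcr7 28.4 ± 2.17 and 29.0 ± 2.82 CPM. Signs within the small differences of young mice turned with the fitted covariates and cohorts, as given in the closing part.

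Whether the response to NACET differed with age was tested as an interaction over all 20 libraries. None of the 7 genes was called, nor any of 16993 genes (0%), and none of the 7 had an unadjusted p under 0.05, where 1052 genes (6.19%) did. DESeq2 called none of the 7 as well, and 86 of 21279 genes. The fitted difference between the response in old and in young mice was -0.21 for Dhcr7 (95% interval -0.42 to 0.0084), -0.20 for Sqle (-0.40 to 0.0072), -0.12 for Cyp51 (-0.31 to 0.06) and -0.40 for Idi1 (-0.91 to 0.10), with adjusted p from 0.817 to 0.908 in edgeR. Those for Srebf2, Fdps and Fdft1 were -0.01, -0.05 and 0.05. A lower level under NACET in old mice and not in young mice was therefore not shown for any of the 7 genes.

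Old and young NACET-treated mice were compared last. Dhcr7 was called lower in old mice, the 1 called gene of the 7, where 4.88% of 16276 genes were called and 2.64% called lower. Its values were 25.0, 29.4 and 32.9 CPM (lowest, median, highest of 6) in young NACET mice and 21.8, 23.7 and 25.4 CPM in old NACET mice. Without the library scaling (TMM) of the fits, the CPM ranges overlapped. So they did for each of the 7 genes, where 4% of 16993 genes had ranges that did not. For Dhcr7, 5 of the 6 old libraries were below every young one in CPM. The highest old value (replicate 5) lay above the lowest young one (replicate 6). Over the 20 libraries the TMM factors of these libraries were 1.03 and 0.961, so this overlap is one of unscaled CPM. The log2 fold change was -0.35 (SE 0.07), a level 21.3% lower, with an adjusted p of 0.00722 (edgeR). It held its call without each of the 12 libraries in turn, with log2 fold changes from -0.38 to -0.31. Among mice labelled male it was -0.42 (adjusted p = 0.0031), and against the 2 old NACET mice of 668 days alone it was -0.46 with an adjusted p of 0.0796, which does not pass the threshold (8 libraries in the fit).

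For Srebf2 the level was 148, 164 and 200 CPM in young and 139, 156 and 160 CPM in old NACET mice (lowest, median, highest), and the log2 fold change was -0.17 (SE 0.06, adjusted p = 0.0771, edgeR). DESeq2, with an adjusted p of 0.0306, and an edgeR fit with labelled sex as a covariate, with 0.0398, called it. These fits called 1325 of 18066 and 1099 of 16276 genes in all. Fdps was -0.21 (SE 0.08, adjusted p = 0.131) and Sqle -0.12 (SE 0.05, adjusted p = 0.171) on the log2 scale. These 3 genes and Dhcr7 had unadjusted p under 0.05, as did 21.1% of all genes, and all 4 were lower in old mice. Cyp51, Idi1 and Fdft1 stood at 0.09, 0.07 and -0.01. Age under NACET and NACET in old mice share the 6 old NACET libraries, so a low value in those libraries enters both: Dhcr7 was -0.35 and -0.19, Sqle -0.12 and -0.19, Srebf2 -0.17 and -0.02, and Cyp51 0.09 and -0.15. Aging and NACET in old mice share the 4 old control libraries, where Cyp51 was 0.21 and -0.15. Markers of cell types and state also differed with age under NACET. Summed rod markers ranged from 73868 to 91443 CPM in young and from 60936 to 73164 CPM in old NACET mice, immediate early genes from 98.6 to 115 CPM and from 75.3 to 85.6 CPM, and microglia markers (6 of 6 in the files) from 16.4 to 26.7 CPM and from 27.1 to 33.6 CPM, with no overlap in these 3 sums. Pigment epithelium markers ranged from 57.6 to 119 CPM and from 22.6 to 70.2 CPM and overlapped. Corneal epithelium markers also overlapped, at 4.25 to 385 CPM (median 111) in young and 0.924 to 10.8 CPM (median 6.11) in old NACET mice. No marker on these lists was at 0 across a group, and their part in the result was not tested.

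The rest of the pathway was described from 6 lists with 62 genes, of which 61 were tested in every comparison. In aging, 1 of 61 was called by edgeR, where 1.42% of all genes were. Abca1, the sterol efflux transporter that is switched on when cells hold excess cholesterol, rose with a log2 fold change of 0.87 (SE 0.16, adjusted p = 0.0198, edgeR), from 77.1 ± 13.1 CPM in young to 145 ± 31.5 CPM in old controls (SD, n = 4 each). The call was lost without old control replicate 2 (log2 fold change 0.74, adjusted p = 0.0510) and without replicate 3 (0.80, 0.0791), and with labelled sex as a covariate (0.72, 0.148). With each library left out in turn the log2 fold change stayed between 0.74 and 0.97. Between the same groups summed microglia markers ranged from 17.6 to 25.2 CPM in young and from 26.6 to 29.2 CPM in old controls, without overlap, and rod markers from 77455 to 92701 CPM and from 67953 to 82109 CPM, and their part in the result was not tested. DESeq2 called 5 of the list genes, Abca1 with Soat1, Mylip, Scd1 and Fasn, and 710 of 16323 genes in all. Soat1, which esterifies cholesterol for storage, stood at 0.33 (adjusted p = 0.0778), Mylip, a sterol-induced ubiquitin ligase, at 0.24 (0.0753) and Scd1, a fatty acid desaturase, at 0.53 (0.0759). The 14 other synthesis enzymes had a median of 0.0005, with 7 higher and 7 lower, and the smallest p among them were those of Sc5d at 0.19, Sc4mol at 0.16 and Mvd at 0.17 (adjusted p = 0.227, 0.430 and 0.489). Of the 9 processing and sensing genes 5 were higher, with Rnf139, Scap and Insig2 at 0.18, -0.12 and 0.09 (adjusted p from 0.259 to 0.483) and Insig1 at 0.09. Of the 10 uptake and transport genes 7 were higher, with the lysosomal sterol exporters Npc2 and Npc1 next to Mylip, at 0.12 and 0.10. The isoprenoid genes Fntb, Nus1 and Dhdds stood at -0.21, 0.19 and -0.13, and after Scd1 the fatty acid genes Fasn and Me1 at -0.30 and 0.14, none of them called by edgeR.

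In old mice under NACET none of the 61 was called by edgeR and 1, Dhdds, by DESeq2, where edgeR called 0.543% of all genes and DESeq2 373 of 16996. Of the 61, 14 had an unadjusted p under 0.05, against 14.4% of all genes, and 40 were lower, against 49.2%. Of the 14 other synthesis enzymes 9 were lower, with a median of -0.12, and 5 of the lower ones had an unadjusted p under 0.05. Sc4mol and Hsd17b7, which act in the removal of sterol methyl groups, stood at log2 fold changes of -0.17 (adjusted p = 0.163, edgeR) and -0.22 (0.237). Of the 10 uptake and transport genes 8 were lower, with a median of -0.04, and Stard4, a sterol carrier, stood at -0.18 (adjusted p = 0.321) and Vldlr at -0.08 (0.562). Among the 9 processing and sensing genes 6 were lower, with a median of -0.06, and Insig1, which retains SREBP in the endoplasmic reticulum and is itself a target, stood at -0.11 (adjusted p = 0.561) and Srebf1, the gene of the related factor SREBP1, at -0.22 (0.139). Of the 10 efflux, storage and turnover genes tested 6 were lower (median -0.0070), of the 10 fatty acid synthesis genes 7 (median -0.04) and of the 8 nonsterol isoprenoid genes 4 (median 0.02). In these lists Soat1, Abca1 and Abcg1 stood at -0.24, -0.27 and -0.09, and Me1, Acss2 and Scd1 at -0.19, -0.11 and -0.29, with adjusted p from 0.170 to 0.406. The smallest adjusted p was that of Dhdds, a subunit of the enzyme that makes dolichol chains, at 0.16 (0.0952), with Fntb at 0.12 and Pggt1b at -0.14.

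Between old and young NACET mice 6 of the 61 genes were called by edgeR, 2 higher and 4 lower in old mice, where 4.88% of all genes were called and 2.64% called lower. Abca1 was higher, at 0.76 (SE 0.09, adjusted p = 6.12e-05, edgeR), with 69.2 ± 6.02 CPM in young and 121 ± 15.7 CPM in old NACET mice (n = 6 each), and Mylip was higher, at 0.22 (adjusted p = 0.0472). Among the lower ones were Fntb, a subunit of protein farnesyltransferase, at -0.21 (adjusted p = 0.0465), and the fatty acid synthase Fasn, at -0.24 (0.0430). The call of Abca1 was kept without each of the 12 libraries, whereas those of Mylip, Fntb and Fasn were lost in 9 of 12 such fits each, with adjusted p up to 0.106, 0.104 and 0.0906 and log2 fold changes over the 12 fits of 0.16 to 0.24, -0.25 to -0.16 and -0.28 to -0.19. Stard4 stood at -0.19 (adjusted p = 0.0787), Scap at -0.15 (0.0555) and Srebf1 at -0.23 (0.0851). DESeq2 called 9 in this comparison, the 6 called by edgeR with Scap, Scd1 and Srebf1, and 1325 of 18066 genes in all. In young mice under NACET none of the 61 was called by either tool, 1 had an unadjusted p under 0.05, against 4.36% of all genes, and the adjusted p was 1.00 throughout. Mvd, Hsd17b7 and Mvk stood at 0.19, 0.07 and -0.06, Vldlr and Npc2 at -0.09 and 0.06, and Scap, Insig2 and Insig1 at 0.07, 0.04 and 0.07. Cyp27a1, Abca1 and Abcg4 were at 0.23, -0.16 and -0.08, Ggps1, Fnta and Fntb at 0.11, -0.14 and 0.11, and Elovl6, Acaca and Scd1 at -0.14, -0.10 and -0.14. In the interaction neither tool called any of the 61 and 3 had an unadjusted p under 0.05, against 6.19% of all genes (among them Mvd at -0.37 and Me1 at -0.23, adjusted p = 0.566 and 0.727), while Insig1 stood at -0.18 (0.928).

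**Figure D3:**
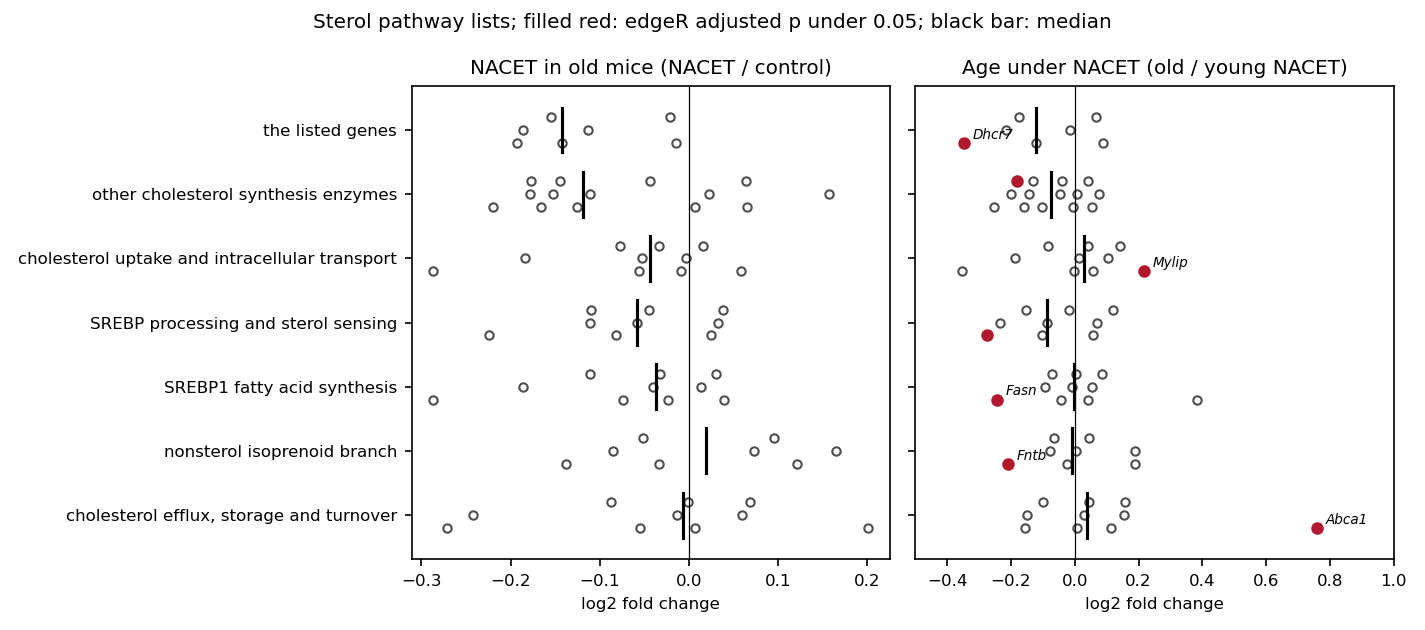
Log2 fold changes of the listed genes and of the 6 other pathway lists for NACET in old mice and for age under NACET. Each point is a gene and black bars are list medians, -0.14 for the 7 counted genes and -0.12 for the other synthesis enzymes in the first panel. Filled red points are called genes, which are absent from the first panel and number 7 in the second, where those described in the text are named.

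Between libraries, the 7 genes mostly rose and fell together, with more gene pairs positive within groups than across them. Over the 20 libraries, Pearson's r of log2 CPM was positive for 15 of the 21 gene pairs, with a median of 0.47 and a range from -0.24 (Idi1 with Fdps) to 0.83 (Fdps with Dhcr7). After the group means were taken out it was positive for 21 of 21 pairs, with a median of 0.54 and a range from 0.043 (Idi1 with Fdps) to 0.76 (Idi1 with Cyp51). Single pairs moved either way: Srebf2 with Dhcr7 went from 0.67 to 0.38, and Cyp51 with Dhcr7 from -0.03 to 0.56. No such values for pairs of other genes are given here. Sqle followed the mean of the other 6 genes most closely, with r of 0.82 over libraries and 0.79 within groups. For Cyp51 the values were 0.30 and 0.73, and for Idi1 0.21 and 0.52. All points share a library, its depth and its cell composition, so these are descriptions with no test.

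The mean of the 7 standardized genes (mean z-score) was above 0 in 2 of the 4 young control libraries (1.01 and 0.93) and below 0 in the other two (-0.56 and -0.48), which are the mice labelled female. In young NACET mice its lowest, median and highest values were -0.32, -0.17 and 1.29, and in old controls -0.34, 0.31 and 0.71. In old NACET mice they were -1.06, -0.45 and -0.02, so that all 6 libraries were below 0 and the lowest of the 20 was the 668-day library with lens transcripts. Young controls had the widest spread in mean log2 CPM of the 7 genes, with an SD of 0.148, compared with 0.0623 in old controls, 0.0716 in old NACET mice and 0.0971 in young NACET mice.

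The genes whose log2 CPM most resembled this mean were drawn from 16986 genes over the 20 libraries. Among the first 10 were Acat2 (cytosolic acetoacetyl-CoA thiolase, r = 0.88, rho = 0.84), Arhgef10l (0.83, 0.74), Kcnip2 (0.81, 0.64), Rnf157 (0.80, 0.70), Kcng4 (0.80, 0.74), Stard4 (0.80, 0.75), Insig1 (0.80, 0.79) and Fam70b (0.79, 0.71), with Pearson's r first and Spearman's rho second. Of the 10, 5 stand in the pathway lists, Acat2, Stard4 and Insig1 among them. Over all genes compared the median r was 0.0064, and the 5th and 95th percentiles were -0.55 and 0.53. The 14 other synthesis enzymes had a median r of 0.62 (range -0.36 to 0.88), with Mvd at 0.75, Lss at 0.69 and Sc4mol at 0.69. The median was 0.32 for fatty acid synthesis genes, 0.21 for processing and sensing genes, -0.02 for the nonsterol isoprenoid genes, -0.07 for efflux genes and -0.29 for uptake and transport genes, the list that also holds Stard4 near its upper end and the HDL receptor Scarb1 at -0.59. The ranking depended on the measure: 4 of the 10 genes were also in the first 10 by Spearman's rho, and 3, with Acat2 among them, in the first 10 of deviations from the group means.

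**Figure D4:**
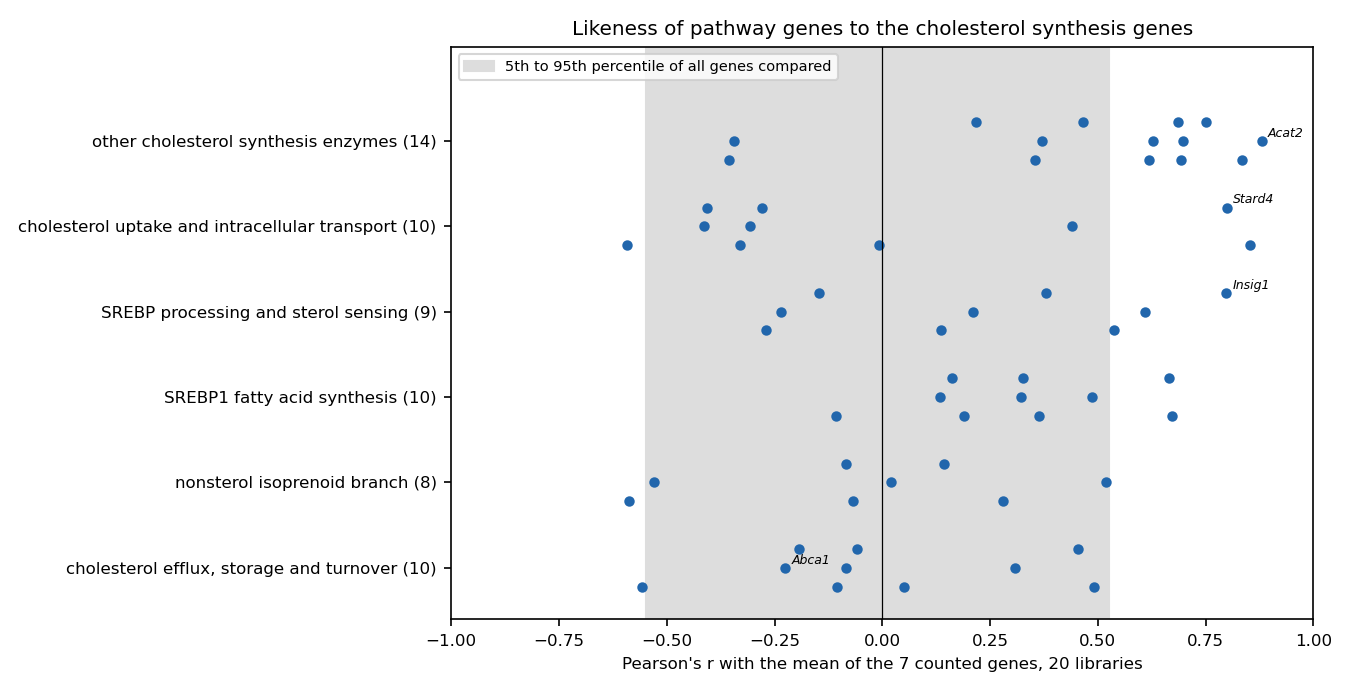
Pearson's r between each pathway gene and the mean of the 7 counted genes over 20 libraries, by list, with the number of genes in parentheses. Grey marks the 5th to 95th percentile of all genes compared (-0.55 to 0.53), and Acat2 at 0.88 lies farthest to the right.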

How the data were processed

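Counts of single-end reads per gene had been deposited for 20 retina libraries. Per the labels and the study's methods, the authors aligned the reads to mm9 with TopHat2 2.1.0 and counted reads over exons with HTSeq 0.11.2 without strand; the annotation is not given in the sources used here. The values are raw whole-number counts, which the authors had not normalized. Each library lists 35006 genes, and the row that names no gene held up to 0.00157% of the whole tally of the counter and was left out.

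Each comparison was fitted on its own 2 groups, and the interaction on all 20 libraries, with edgeR 4.0.16 in R 4.3.3 (TMM, default expression filter, quasi-likelihood test, Benjamini-Hochberg adjustment over all genes tested). The call threshold was an adjusted p of 0.05. DESeq2 1.42.0, other filters and scalings, each library left out, labelled sex, cohort and a replicate block were the alternatives. Scripts were tested on simulated data. CPM of genes and of summed markers are counts per 1e+06 gene counts without TMM scaling, and group ranges and their overlap were taken on that scale. RPKM used exon lengths of the GENCODE M1 annotation on mm9. Likeness used TMM-scaled log2 CPM with a prior count of 1. All intervals are at 95%.

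The members and lists were chosen with earlier results of these data known. Named were the 8 listed genes, Insig1, pathway genes called in any comparison or otherwise the 3 with the smallest p per list, and the 10 genes most like the mean of the members; for the interaction, of the lists, Insig1 and the genes with an unadjusted p under 0.05 are named in place of 3 per list. Some genes that this rule names are not reported here.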

Additional observations from a re-analysis of the deposited data

Results flagged for a closer look

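The Srebf2 level in old NACET replicate 3, a mouse of 581 days, was 139 CPM, the lowest of its group and apart from the other 5 libraries, which lay between 153 and 160 CPM. Its gap to the nearest of them, divided by the range of the group, was 0.666, above the 95% critical value of Dixon's test for 6 values. It was the 1 value marked among 28 pairs of gene and group, and chance marks about 1 group in 20. Without this library the log2 fold change of Srebf2 for NACET in old mice was 0.0023, against -0.02 with it.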

How the results depend on the processing

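Calls among the 8 genes changed under few settings. Between old and young NACET mice 1 gene was called, and 2 were with DESeq2 and with labelled sex as a covariate (Dhcr7 and Srebf2). Over all genes the main fit called 795 of 16276, DESeq2 1325 of 18066 and the fit with labelled sex 1099 of 16276. The count was 0 when old NACET mice of 668 days alone were kept, an alternative chosen after seeing the data that leaves 8 libraries. That fit called 151 of 16935 genes. With each library left out in turn, the number called ranged from 1 to 1 there, from 0 to 1 for NACET in old mice (Sqle, without old control replicate 3) and from 0 to 0 in aging, in young mice under NACET and in the interaction. Dhcr7 kept its call for age under NACET in 20 of 21 alternatives, with log2 fold changes from -0.46 to -0.31 and edgeR or DESeq2 adjusted p from 0.000253 to 0.0796.

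Replicate numbers recur across groups, and the main fits did not treat same-numbered libraries as pairs. Correlations of deviations between same-numbered libraries ranged from -0.157 to 0.123 over 18 pairs. Of these, 3 were over 0.1, and in no comparison were all above 0.1. They were not set against libraries of different numbers, so whether the numbers mark pairs was not tested. With the replicate block 1 gene was called for age under NACET (Dhcr7, adjusted p = 0.0398) and 0 in each other comparison, so the block changed no call among the 8 genes. It moved called pathway genes from 6 to 2 for age under NACET and from 1 to 2 in aging. Over all genes the calls moved from 795 to 422 and from 234 to 163.

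Signs turned in small differences that no fit called. In aging, Sqle was -0.054 with labelled sex as a covariate, -0.054 among labelled males and -0.066 when old control replicate 4 was also left out. For NACET in old mice, Srebf2 was 0.0053 among 668-day mice and 0.0040 with age in the title as a covariate. For NACET in young mice, Srebf2 was 0.032 and Cyp51 0.0082 with the replicate block, and 0.036 and 0.0021 over the same libraries without it. There Sqle was -0.015 with sex as a covariate, -0.12 among labelled males, -0.018 among 119-day mice, -0.019 with age in the title and -0.060 with age in the batch tag as a covariate. Dhcr7 was -0.017 with sex, -0.13 among 119-day mice, -0.13 with age in the title and -0.11 with age in the batch tag, and Idi1 was -0.091 among labelled males. For age under NACET, Idi1 was -0.00015 with 668-day old NACET mice alone. In the interaction, Srebf2 was 0.0046 with sex as a covariate and 0.0024 with 668-day old mice alone, where Fdft1 was -0.017. The cause was not tested.

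Leaving out 1 library turned signs within these ranges of log2 fold change. For NACET in old mice they were -0.080 to 0.031 for Srebf2 and -0.033 to 0.013 for Fdft1. For NACET in young mice they were -0.050 to 0.018 for Srebf2, -0.050 to 0.075 for Sqle, -0.073 to 0.033 for Cyp51 and -0.028 to 0.054 for Dhcr7. For age under NACET they were -0.036 to 0.032 for Fdft1 and -0.024 to 0.13 for Idi1, and in the interaction -0.073 to 0.039 for Srebf2. Depth limits Idi1 most, at 34 to 102 reads per library, and Hmgcs1 gives no value.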

Other observations

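Ranked by deviations from the group means instead of levels, the 10 genes most like the mean of the 7 counted genes included Clip3 (r = 0.90), Mapk8ip2 (0.88), Igsf8 (0.87), Osbpl10 (0.87), C1ql1 (0.86), Magee1 (0.86), Acat2 (0.86) and Qdpr (0.85), over 20 libraries and with no test. Of the 10, 3 are in the pathway lists. Osbpl10, which encodes an oxysterol-binding protein relative, is in none of them. The points share library, depth and cell composition.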
